A study of Mus musculus with 6 samples.

Results

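Glutathione synthesis and the NRF2 target enzymes were examined through 10 genes: Slc7a11, Gclc, Gclm, Gss, Gsr, G6pdx, Txn1, Txnrd1, Srxn1 and Nqo1. They were taken by symbol, with the transcript of highest mean over the 6 libraries kept for each gene, and all 10 were found among the 23394 genes of the data. The RNA came from liver cells bearing F4/80, a surface antigen of mouse macrophages, that were collected by magnetic sorting. KO mice given CCl4 supplied 3 libraries and WT mice given CCl4 supplied 3. All animals were male C57BL/6 mice aged 3 months and fed normal chow, and all had received carbon tetrachloride (CCl4), a liver toxin that causes fibrosis on repeated dosing, into the peritoneum. The labels name neither the gene targeted in the KO mice nor a promoter or Cre driver, so the deletion could not be checked by its target, and untreated mice were not analysed here. Nothing in the labels ties a library to 1 animal, so the p-values describe spread between samples that may be technical.

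Glutathione is a tripeptide that reduces peroxides and is joined to reactive electrophiles. Cells import cystine through the transporter Slc7a11, join cysteine to glutamate with glutamate-cysteine ligase, made of Gclc and Gclm, and add glycine with Gss. Oxidised glutathione and oxidised thioredoxin are reduced again by Gsr and Txnrd1 with NADPH, much of which comes from G6pdx. NRF2, the transcription factor encoded by Nfe2l2, is kept low by KEAP1 and, when released, binds antioxidant response elements near many of these genes together with small MAF proteins. Hepatocytes hold large stores of glutathione and export it, while macrophages use the same enzymes against the oxidants they make.

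The libraries held 10790842 to 19163317 reads in KO and 15027644 to 22157238 reads in WT, counted over 1 transcript per gene. The 10 genes had 33 to 6676 reads per library. The values given here are the normalised counts that the authors deposited, which are reads divided by 1 factor per library. The macrophage label was checked against 12 markers, all of which were read. Adgre1, which encodes F4/80, averaged 5254 ± 1233 normalised counts in KO and 6208 ± 1613 in WT libraries (SD, n = 3 each; log2 change -0.23). Markers of hepatocytes, endothelium and erythroid cells were read as well. KO replicate 1 stood apart on the second principal component, at 75.9, against -31.4 to 18.4 for the other 5 libraries. In this bulk RNA, fewer cells of a type and less RNA per cell cannot be told apart.

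In KO libraries Gclm, a ligase subunit gene of glutathione synthesis, rose, and Gsr, the reductase gene that recycles glutathione, fell. Gclm was 2.09-fold of its WT level and Gsr 0.478-fold. They were the 2 of 10 genes with a limma adjusted p under 0.05, where p-values were adjusted over all 15619 tested genes, of which 2.44% passed, 2.09% as higher and 0.352% as lower in KO. edgeR called 1 of the 10, Gclm, against 1.81% of all genes, and DESeq2 called 4 of the 10, Gclm, Gsr, Gclc and G6pdx, against 9.21%. The 3 KO and 3 WT values did not overlap for 4 of the 10 genes. These were Gclm and Gclc, higher in KO, and Gsr and G6pdx, lower in KO. For comparison, KO and WT values were separate in 22.9% of all tested genes, 13.7% with KO higher and 9.25% with KO lower. The median log2 change of the 10 genes was -0.15, with 3 above and 7 below 0, and that of all tested genes was 0.05, with 54.2% above 0.

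**Figure D1:**
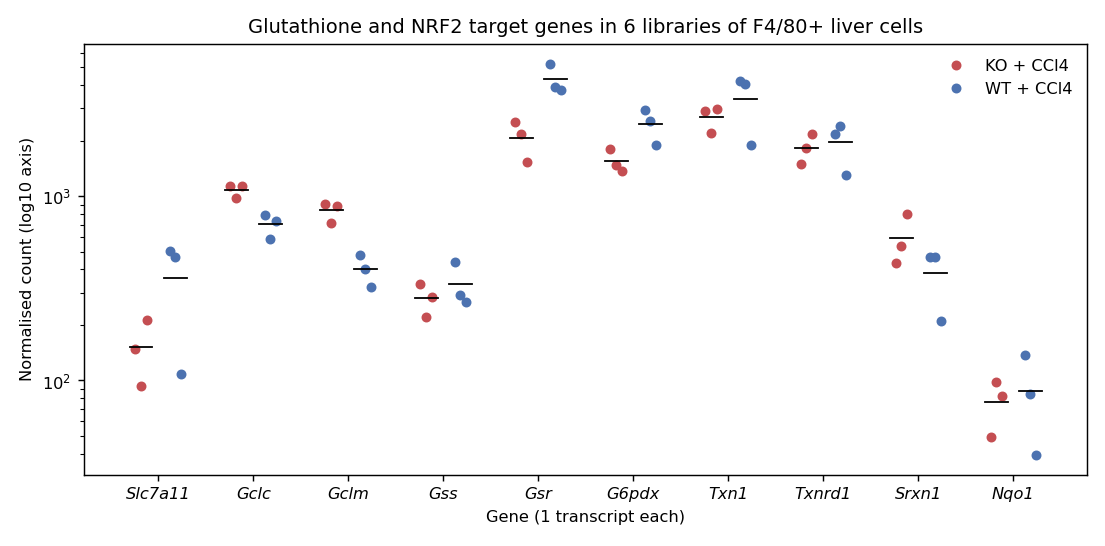
Normalised counts of the 10 genes on a log10 axis, with a point for each of the 3 KO and 3 WT libraries and a bar at each group mean. Gclc and Gclm are higher in all 3 KO libraries than in any WT library, Gsr and G6pdx are lower, and the other 6 genes overlap.

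Markers of other cells moved with genotype beside these changes. Their counts stand against 2.44% of all tested genes called by limma, 1.81% by edgeR and 9.21% by DESeq2. All 12 hepatocyte markers had a log2 change above 0, and 6 of them rose, among them Cyp2e1, a drug-metabolising P450 enzyme that also activates CCl4, at a log2 change of 2.35. edgeR called 6 of the 12 hepatocyte markers and DESeq2 called 8, all as higher in KO. The 3 most abundant of the 12, Alb, Apoa1 and Hpx, all plasma proteins, had log2 changes of 1.19, 2.23 and 0.71. These 3 were called by none of limma, edgeR and DESeq2. The summed level of the 12 was 109295 to 207475 in KO and 28274 to 97524 in WT libraries. All 10 endothelial markers were above 0 and 5 passed in limma, including the abundant Dnase1l3 (1.49) and Clec4g (1.49), while the abundant Stab2, at 0.91, did not. edgeR called 1 of the 10, Bmp2, and DESeq2 called 6. The endothelial sums were 55339 to 107181 in KO and 26362 to 49614 in WT. Of 8 stellate cell markers 7 were above 0 and 1, the collagen gene Col1a1, passed in limma, while the most abundant, the matrix genes Col3a1, Col1a2 and Dcn, were at 0.74, 1.13 and 0.64 and did not pass in limma. edgeR called no stellate cell marker, and DESeq2 called Col1a1 and Col1a2. The stellate cell sums were 28286 to 50987 in KO and 17950 to 23588 in WT.

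All 7 tested erythroid markers were above 0, and the 3 most abundant, the globin genes Hbb-bs, Hba-a1 and Hba-a2, had log2 changes of 3.21, 3.43 and 3.42. None passed in limma, edgeR or DESeq2, although 6 had an unadjusted limma p under 0.05, against 18% of all tested genes. The erythroid sums were 30738 to 268695 in KO and 2221 to 33339 in WT. Of 12 macrophage markers 8 were below 0 and 1, the chemokine receptor gene Cx3cr1, fell, with sums of 72702 to 77491 in KO and 85007 to 158616 in WT. The 3 most abundant genes of this list, Csf1r, Ptprc and Cd5l, had log2 changes of -0.92, -0.99 and -0.67 and did not pass in limma. Clec4f, a lectin receptor gene of Kupffer cells, went the other way, at a log2 change of 1.12 with every KO library above every WT library, and did not pass in limma (adjusted p = 0.0537). edgeR called Cx3cr1 alone of the 12, and DESeq2 called Cx3cr1, Csf1r, Ptprc and Marco as lower and Clec4f as higher in KO. Of 8 neutrophil markers 7 were below 0, and 1 had an unadjusted limma p under 0.05, against 18% of all tested genes. None of the 8 passed in limma or edgeR, while DESeq2 called Retnlg as lower. S100a9, S100a8 and Retnlg were at -0.13, -0.04 and -1.17. The neutrophil sums were 6885 to 13036 in KO and 8436 to 11466 in WT. No gene of these 6 lists was at 0 in all 6 libraries. The part of these cells in the rise of Gclm, the fall of Gsr and the changes of the other pathway genes was not tested.

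Promoter windows are shown for Gclm, which rose, and for Srxn1, Txnrd1 and G6pdx, because these 4 windows hold the narrower form of the antioxidant response element. The windows are RefSeq sequences of GRCm38.p6 that run from 250 bases before to 50 bases after an annotated start. RefSeq windows were matched for 8 of the 10 genes, and Gclc and Gsr were not among them. The element was searched as TGANNNNGC on both strands, where N is any base, and as TGACNNNGC, each match of which is also a match of TGANNNNGC. The 8 genes had 10 windows, 3 of them for Txnrd1. TGANNNNGC was found in 6 of these 10 windows, 2 of them of Txnrd1, and in 41.3% of the 32851 windows of all genes. TGACNNNGC was found in 4 of the 10 windows, and in 12.4% of all windows. Capitals mark every match of TGANNNNGC in either orientation, read 5′ to 3′ on the strand of the gene.
Gclm: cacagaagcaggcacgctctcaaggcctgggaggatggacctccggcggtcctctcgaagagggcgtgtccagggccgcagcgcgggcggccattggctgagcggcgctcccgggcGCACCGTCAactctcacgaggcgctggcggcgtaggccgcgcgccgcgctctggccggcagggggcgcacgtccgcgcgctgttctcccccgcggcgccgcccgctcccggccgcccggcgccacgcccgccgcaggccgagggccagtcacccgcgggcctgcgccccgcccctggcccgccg
Srxn1: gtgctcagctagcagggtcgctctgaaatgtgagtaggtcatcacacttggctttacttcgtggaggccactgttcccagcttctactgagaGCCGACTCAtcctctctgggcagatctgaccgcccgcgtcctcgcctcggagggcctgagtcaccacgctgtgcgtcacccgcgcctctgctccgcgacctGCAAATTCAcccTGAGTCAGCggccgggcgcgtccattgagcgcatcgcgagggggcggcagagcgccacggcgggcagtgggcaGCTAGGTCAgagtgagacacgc
Txnrd1: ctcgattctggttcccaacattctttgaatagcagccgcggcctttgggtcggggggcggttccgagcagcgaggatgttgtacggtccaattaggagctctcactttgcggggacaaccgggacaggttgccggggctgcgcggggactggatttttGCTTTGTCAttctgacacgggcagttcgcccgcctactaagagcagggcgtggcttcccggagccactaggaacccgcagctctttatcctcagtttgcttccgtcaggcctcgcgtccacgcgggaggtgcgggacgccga
G6pdx: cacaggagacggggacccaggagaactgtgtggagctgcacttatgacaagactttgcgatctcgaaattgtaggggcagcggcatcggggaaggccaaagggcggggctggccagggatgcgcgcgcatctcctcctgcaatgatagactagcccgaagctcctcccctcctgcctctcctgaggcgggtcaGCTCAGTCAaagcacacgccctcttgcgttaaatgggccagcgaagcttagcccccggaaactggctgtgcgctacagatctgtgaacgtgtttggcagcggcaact
In Gclm the match begins 134 bases before the start and reads on the opposite strand. In Srxn1 the match nearest before the start, TGAGTCAGC, begins 45 bases before it, and 3 others read on the opposite strand, the narrower of which begins 29 bases after the start. The Txnrd1 and G6pdx windows shown hold 1 match each, which begin 92 and 57 bases before the window's start site. That site lies 27 bases downstream of the kept transcript's annotated start for Txnrd1 and 314 bases downstream for G6pdx. The windows are chr3:122245307-122245606 on the plus strand for Gclm, chr2:152105274-152105573 on the plus strand for Srxn1, chr10:82858956-82859255 on the plus strand for Txnrd1 and chrX:74428831-74429130 on the minus strand for G6pdx. The matches are letters in a window, with no binding measured. Of the 4 genes shown, limma and edgeR called Gclm, and DESeq2 called Gclm and G6pdx.

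Glutamate-cysteine ligase, the first and rate-limiting enzyme of glutathione synthesis, has a catalytic subunit, Gclc, and a modifier subunit, Gclm, that makes it more efficient. The kept transcript of Gclm (ENSMUSG00000028124) lies on the plus strand of chromosome 3 in GRCm38, from 122245557 to 122270732, with 7 exons and 5589 bases. Gclm had 909, 716 and 890 normalised counts in KO replicates 1, 2 and 3, against 482, 404 and 323 in WT replicates 1, 2 and 3. Every KO library was above every WT library. The log2 change of Gclm was 1.06 (SE 0.21, 95% interval 0.60 to 1.53, limma adjusted p = 0.0397). edgeR's quasi-likelihood test on the recovered reads gave an adjusted p of 0.0461. The call was lost without KO replicate 2, KO replicate 3, WT replicate 2 or WT replicate 3, at limma adjusted p of 0.0816, 0.167, 0.0653 and 0.0897, while the log2 change stayed between 0.92 and 1.20 over the 6 fits without a library.

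Gclc (ENSMUSG00000032350), the catalytic subunit, lies on the plus strand of chromosome 9 from 77754535 to 77794485. Gclc had 1132, 981 and 1137 normalised counts in KO replicates 1, 2 and 3, against 792, 585 and 730 in WT replicates 1, 2 and 3. The groups did not overlap, and the KO values lay closer together than the WT values. Its log2 change was 0.63 (SE 0.18, 95% interval 0.22 to 1.04), and Gclc did not pass limma's test (adjusted p = 0.102). DESeq2 on the recovered reads gave an adjusted p of 0.0481.

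Gss (ENSMUSG00000027610), glutathione synthetase, which adds glycine in the last step, was at 332, 222 and 284 normalised counts in KO replicates 1, 2 and 3 and at 439, 291 and 267 in WT replicates 1, 2 and 3. The groups overlapped. Gss had a log2 change of -0.23 (95% interval -0.83 to 0.36, limma adjusted p = 0.706), so a change of the size seen for Gclm lies outside this interval. On the opposite strand, exons of Acss2 and of the Gss antisense genes Gssos1 and Gssos2 cover 14.1% of the kept Gss transcript, and although the library kit marks strand, per the labels' protocols, the strand setting of the counting is not stated there.

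Slc7a11 (ENSMUSG00000027737), the light chain of the cystine-glutamate exchanger that brings in cystine, was at 147, 92.9 and 213 normalised counts in KO replicates 1, 2 and 3 and at 504, 468 and 109 in WT replicates 1, 2 and 3. WT replicate 3 lay among the KO libraries, and the other 2 WT libraries were above all KO libraries. For Slc7a11 the log2 change was -1.04 (SE 0.56, 95% interval -2.30 to 0.22), and Slc7a11 did not pass (limma adjusted p = 0.380). Without WT replicate 3 the log2 change was -1.76 (limma adjusted p = 0.0546), and without WT replicate 1 it was -0.66. Slc3a2, the heavy chain with which Slc7a11 pairs, had a log2 change of 0.22 (95% interval -0.18 to 0.63).

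Gsr (ENSMUSG00000031584), glutathione reductase, returns oxidised glutathione to its reduced form. Its kept transcript lies on the plus strand of chromosome 8 from 33653238 to 33698163, with 13 exons and 2673 bases. Gsr had 2533, 2163 and 1524 normalised counts in KO replicates 1, 2 and 3, against 5241, 3896 and 3749 in WT replicates 1, 2 and 3. Every KO library was below every WT library, and KO replicate 3 was the lowest of all. Gsr had a log2 change of -1.07 (SE 0.23, 95% interval -1.59 to -0.54, limma adjusted p = 0.0495). The call was close to the threshold: edgeR's quasi-likelihood test gave an adjusted p of 0.0508, DESeq2 gave 0.000439, and limma kept the call in 1 of 6 fits without a library, the fit without KO replicate 1 (adjusted p = 0.0292). In the other 5 fits the limma adjusted p was 0.0739 to 0.185, and the log2 change was -1.23 to -0.86 over all 6.

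G6pdx (ENSMUSG00000031400), glucose-6-phosphate dehydrogenase, makes NADPH at the entry of the pentose phosphate pathway. G6pdx had 1800, 1469 and 1362 normalised counts in KO replicates 1, 2 and 3, against 2933, 2560 and 1905 in WT replicates 1, 2 and 3. The groups did not overlap, but KO replicate 1 and WT replicate 3 lay near each other. The log2 change was -0.66 (SE 0.21, 95% interval -1.13 to -0.20), and G6pdx did not pass limma's test (adjusted p = 0.127), while DESeq2 gave 0.0218. Of its stretches of 50 bases, 7.64% also occur in the retrogene G6pd2, which was listed at 13.4 to 24.5 in KO and 30.3 to 87.6 in WT libraries, and how reads matching both genes were counted is not stated in the labels.

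**Figure D2:**
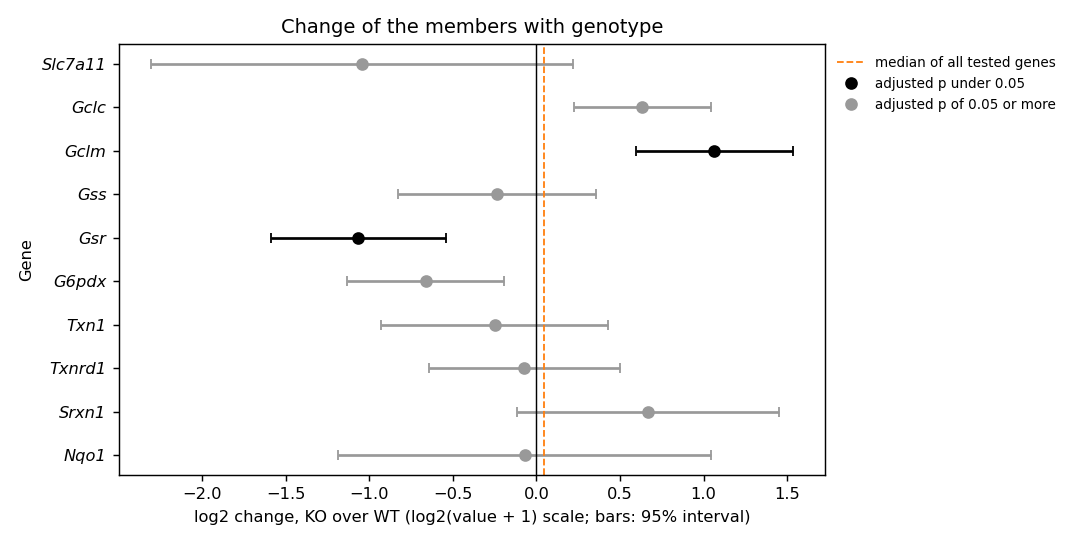
The log2 change of each of the 10 genes, KO over WT, with its 95% interval from limma; black points passed and grey points did not, and the dashed line is the median of all tested genes at 0.05. Gclm at 1.06 and Gsr at -1.07 lie on opposite sides of 0, and the interval of Slc7a11 is the widest.

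The thioredoxin branch showed no called change. Txn1 (ENSMUSG00000028367), the cytosolic thioredoxin, was at 2914, 2196 and 2989 normalised counts in KO replicates 1, 2 and 3 and at 4194, 4038 and 1902 in WT replicates 1, 2 and 3. WT replicate 3 was below every KO library and the other WT libraries above them. Of Txn1's stretches of 50 bases, 2.50% also occur in the pseudogene Txn-ps1, listed at 69.1 to 116 in KO and 65.9 to 118 in WT libraries. Txn1 had a log2 change of -0.25 (95% interval -0.93 to 0.43, limma adjusted p = 0.730), and it was -0.62 without WT replicate 3. Txnrd1 (ENSMUSG00000020250), the selenoprotein that reduces thioredoxin, was at 1503, 1822 and 2164 normalised counts in KO replicates 1, 2 and 3 and at 2182, 2417 and 1304 in WT replicates 1, 2 and 3. Its groups overlapped, with a log2 change of -0.07 (95% interval -0.64 to 0.50, limma adjusted p = 0.921). A fall of the size seen for Gsr lies outside the intervals of both genes.

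Srxn1 (ENSMUSG00000032802), sulfiredoxin, which restores overoxidised peroxiredoxins, was at 432, 536 and 801 normalised counts in KO replicates 1, 2 and 3 and at 469, 469 and 210 in WT replicates 1, 2 and 3. KO replicate 1 lay below WT replicates 1 and 2, so the groups overlapped. The log2 change was 0.67 (SE 0.35, 95% interval -0.12 to 1.45, limma adjusted p = 0.365), and it was 0.28 without WT replicate 3. Nqo1 (ENSMUSG00000003849), a quinone reductase and a much used reporter of NRF2 activity, was at 49.2, 97.7 and 82.0 normalised counts in KO replicates 1, 2 and 3 and at 138, 84.0 and 39.3 in WT replicates 1, 2 and 3. The WT values spanned the KO values. The log2 change was -0.07 with a 95% interval of -1.18 to 1.04 (limma adjusted p = 0.963), which reaches beyond 1 on the log2 scale in both directions.

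In normalised counts, WT replicate 3 was the lowest of the 6 libraries for Nqo1, Txnrd1, Srxn1, Txn1 and Gclm. As RPKM, reads scaled by transcript length and library reads, it was lowest among them only for Srxn1, at 6.00. By RPKM, KO replicate 1 was lower for Nqo1 (1.97 against 2.03) and Txnrd1 (28.1 against 31.5). KO replicate 2 was lower for Txn1 (137 against 145), and WT replicate 2 for Gclm (4.15 against 4.65). Log2 normalised counts were also centred for each gene on its mean over the 6 libraries. On this scale Srxn1 was at -1.10 in WT replicate 3, Nqo1 at -0.92, Slc7a11 at -0.91, Gclm at -0.83 and Txn1 at -0.62. Gsr did not share this, with 0.35 in WT replicate 3. That library also had the lowest mean levels of hepatocyte, endothelial, stellate cell and erythroid markers, at -1.52, -0.99, -0.81 and -3.89 on the same scale, and the lowest share of mitochondrially encoded reads, 6.19% against 16.2% to 27.5% elsewhere. The part of these in the members' levels was not tested.

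**Figure D3:**
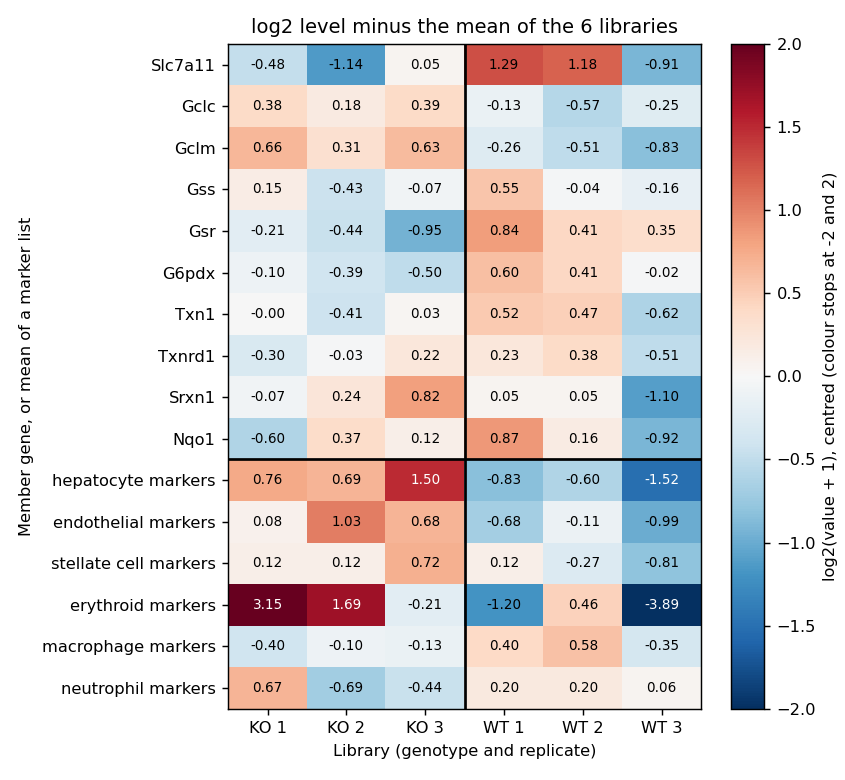
The log2 level of each of the 10 genes and the mean log2 level of 6 marker lists in each library, minus the mean of the 6 libraries; KO libraries are on the left, and the colour stops at -2 and 2. Gclc and Gclm are above their means in all KO libraries and below them in all WT libraries, Gsr shows the opposite, and WT replicate 3 is low for 5 of the other 7 genes by more than 0.5.

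Per length, the 10 genes spanned a wide range of levels. As RPKM, computed here from the recovered reads over the kept transcript and the library's reads, Txn1 was highest, at 162 ± 21.5 in KO and 208 ± 57.2 in WT libraries (SD, n = 3 each). Gsr followed at 49.0 ± 12.4 in KO and 108 ± 22.0 in WT, then G6pdx at 36.7 ± 5.28 in KO and 61.5 ± 8.67 in WT, and Txnrd1 at 34.7 ± 6.10 in KO and 38.5 ± 6.08 in WT. Gclc was at 19.9 ± 1.03 in KO and 14.0 ± 3.77 in WT, Srxn1 at 13.2 ± 4.06 in KO and 8.78 ± 2.48 in WT, and Gss at 8.95 ± 1.57 in KO and 11.3 ± 2.99 in WT. Gclm was at 9.44 ± 0.923 in KO and 4.79 ± 0.721 in WT, Nqo1 at 3.12 ± 1.08 in KO and 3.63 ± 1.91 in WT, and Slc7a11 at 1.03 ± 0.384 in KO and 2.46 ± 1.35 in WT. In the order of the mean over the 6 libraries, Txn1 stood apart from Gsr and Txnrd1 from Gclc, while the ranges of all other neighbours overlapped. Each range was taken over the 6 libraries of both genotypes, so an overlap does not show that the order changed within a library.

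Ratios between members within a library do not depend on how the libraries were scaled, and the pairs were chosen after the members' values were seen, so they carry no test. Per length, Gsr stood at 5.83, 6.31 and 3.58 times the level of Gclm in KO replicates 1, 2 and 3, against 22.7, 20.1 and 24.2 times in WT replicates 1, 2 and 3. The Gsr to Gclc ratio was 2.86, 2.82 and 1.72 in KO replicates 1, 2 and 3, against 8.47, 8.53 and 6.58 in WT replicates 1, 2 and 3. These ratios of a recycling gene to a synthesis gene did not overlap between the genotypes. That follows from Gsr being lower, and Gclm and Gclc higher, in every KO library, and adds nothing to the single-gene values. Gclc, the catalytic subunit, exceeded Gclm per length in every library, 2.12 ± 0.104 times in KO and 2.91 ± 0.690 times in WT (SD, n = 3 each). The Gss to Gclm ratio was 0.944 ± 0.0852 in KO and 2.33 ± 0.272 in WT. For Txnrd1 to Txn1 the ratio was 0.218 ± 0.0505 in KO and 0.190 ± 0.0262 in WT, and the groups overlapped.

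**Figure D4:**
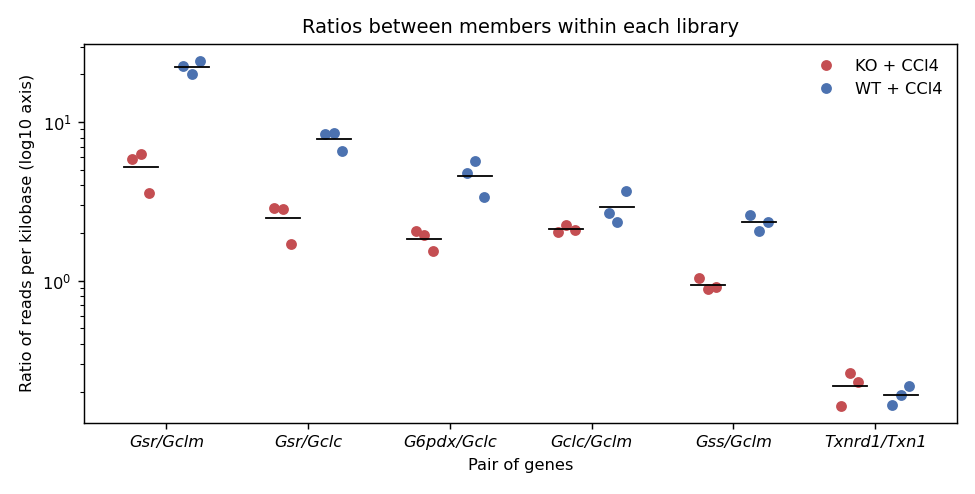
Ratios of reads per kilobase between pairs of the 10 genes on a log10 axis, with a point per library, KO left of WT, and a bar at each group mean. The Gsr to Gclm ratio is 3.58 to 6.31 in KO and 20.1 to 24.2 in WT libraries, while the Txnrd1 to Txn1 ratio overlaps.

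Several members had more than 1 transcript in the data, and these share reads, so they are not replicates. All 7 Gclm transcripts had a log2 difference above 0, and the 6 with a mean of at least 50 normalised counts lay between 0.94 and 1.06. The 3 Gsr transcripts lay between -1.07 and -1.02. The 4 G6pdx transcripts were all below 0, as were the 5 Slc7a11 and the 9 Gss transcripts, where the Gss values ran from -0.71 to -0.12. With the transcripts of each gene summed, the log2 changes of Gclm and Gsr were 1.02 and -1.05 and neither passed (limma adjusted p of 0.0561 and 0.0640).

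The 10 genes were also compared with each other by the Euclidean distance between their centred log2 profiles over the 6 libraries, as a description with no test. The closest members were Txnrd1 and Txn1, at 0.61, then Gsr and G6pdx, at 0.63, and Gclc and Gclm lay 0.71 apart. Slc7a11 and Gclm were farthest apart, at 3.00. Among all named protein-coding genes tested, Echdc1, Papss2 and Cyb5a were nearest to Gclm, at distances of 0.21, 0.26 and 0.29 and log2 changes of 1.0, 0.94 and 0.98. Pparg, Cyfip2 and Bcl6 were nearest to Gsr, at distances of 0.23, 0.23 and 0.24 and log2 changes of -1.15, -1.06 and -0.96.

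Beyond the 10 genes, 80 other genes of the pathway were tested in 6 lists, and 5 of them, or 6.25%, passed, all higher in KO. Over all tested genes 2.09% passed as higher in KO. The 5 were Cbs, Cth, Cat, Nnt and Hagh. The median log2 change of the 80 was 0.33, against 0.05 for all tested genes. None passed as lower in KO in any list.

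None of the 10 NRF2 regulators passed in limma, edgeR or DESeq2. Only 1 of them, Bach1, had an unadjusted limma p under 0.05, against 18% of all tested genes. The median log2 change of the 10 regulators was -0.06. Nfe2l2, which encodes NRF2, was at 2284, 2217 and 2403 normalised counts in KO replicates 1, 2 and 3 and at 3915, 3459 and 2313 in WT replicates 1, 2 and 3. WT replicate 3 lay among the KO libraries. The log2 change of Nfe2l2 was -0.45 (95% interval -0.94 to 0.03, limma adjusted p = 0.314). Bach1, a repressor that competes with NRF2, was at 1186 ± 256 in KO and 1784 ± 270 in WT libraries (SD, n = 3 each; limma adjusted p = 0.164). Keap1, which marks NRF2 for degradation, had a log2 change of 0.02 (95% interval -0.38 to 0.42), and Mafg, a small MAF partner, one of -0.30.

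Of 19 other NRF2 targets, 1 rose, none fell and 18 did not pass, with a median log2 change of 0.58. Cat, which encodes catalase, had 10803, 6625 and 9315 normalised counts in KO replicates 1, 2 and 3, against 4080, 2398 and 2485 in WT replicates 1, 2 and 3 (log2 change 1.59, SE 0.27, limma adjusted p = 0.0252). Every KO library was above every WT library. Without KO replicate 3, WT replicate 2 or WT replicate 3 Cat was not called (limma adjusted p of 0.105, 0.055 and 0.0533). Gsta4, a glutathione transferase of lipid peroxidation products, and Osgin1, a growth inhibitor, were higher in every KO library than in any WT library at log2 changes of 1.66 and 0.81, but did not pass (limma adjusted p of 0.0529 and 0.0543). DESeq2 gave 18 of these targets an adjusted p and called 8, all higher in KO, against 9.21% of all genes in either direction. edgeR called Cat alone, against 1.81% of all genes. Hmox1, the stress-induced heme oxygenase, was at 3513 ± 298 in KO and 5901 ± 2592 in WT libraries, with a log2 change of -0.64 (95% interval -1.36 to 0.07).

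Of 9 genes of NADPH supply, 1 rose and 8 did not pass, with a median log2 change of 0.01. Nnt, the transhydrogenase that makes mitochondrial NADPH, had 724, 614 and 633 normalised counts in KO replicates 1, 2 and 3, against 357, 359 and 339 in WT replicates 1, 2 and 3 (log2 change 0.90, SE 0.18, limma adjusted p = 0.0401). The groups did not overlap, and of the 6 fits without a library only that without KO replicate 1 kept the call. Pgd, the pentose phosphate enzyme that follows G6pdx, had a log2 change of -0.44, and Idh2, a mitochondrial isocitrate dehydrogenase, one of 0.52, and neither passed.

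The cysteine supply list also holds Oplah, an enzyme of glutamate recovery. Of the list's 12 genes, 2 rose and 10 did not pass, with a median log2 change of 0.07. Both belong to transsulfuration, the route that makes cysteine from methionine and is strong in hepatocytes. Cbs, cystathionine beta-synthase, had 1308, 770 and 1160 normalised counts in KO replicates 1, 2 and 3, against 171, 77.7 and 122 in WT replicates 1, 2 and 3 (log2 change 3.15, SE 0.32, limma adjusted p = 0.0057). Cth, which releases the cysteine, was at 759 ± 438 in KO and 149 ± 61.8 in WT libraries (SD, n = 3 each; log2 change 2.26, limma adjusted p = 0.0323). Cbs was called in all 6 fits without a library, and Cth was lost without KO replicate 3, WT replicate 2 or WT replicate 3 (limma adjusted p of 0.108, 0.0617 and 0.0689). Oplah, which recovers glutamate from oxoproline, stood at a log2 change of 1.23 without passing in limma (adjusted p = 0.0662), while DESeq2 called it.

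Of 17 genes of glutathione use and breakdown, 1 rose and 16 did not pass, with 15 above 0 and a median log2 change of 0.60. Hagh, which frees glutathione in methylglyoxal detoxification, was at 847 ± 206 in KO and 403 ± 68.5 in WT libraries (SD, n = 3 each; log2 change 1.06, limma adjusted p = 0.0476). edgeR's quasi-likelihood test did not call Hagh (adjusted p = 0.0543), and neither did any of the 6 limma fits without a library. Glo1, the enzyme before Hagh in that route, and Glrx5, a mitochondrial glutaredoxin, had log2 changes of 0.95 and 0.91 without passing in limma; DESeq2 called both. In the thioredoxin and peroxiredoxin list none of 13 genes passed in limma or edgeR, and DESeq2 called 1, Msra. An unadjusted limma p under 0.05 was found for 3 of the 13, against 18% of all tested genes. The list had a median log2 change of 0.20. Its members of smallest p were Msra and Msrb1, which reduce oxidised methionine, at 0.87 and -0.63, and Txnrd3, a thioredoxin reductase, at 0.80.

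**Figure D5:**
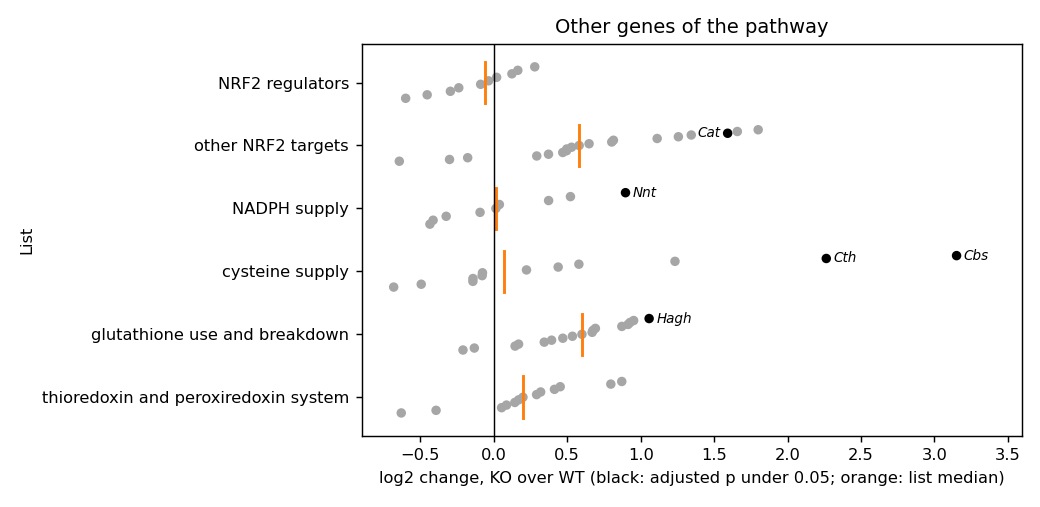
The log2 change, KO over WT, of each tested gene in 6 lists of related genes, with the 5 called genes in black and named and the list medians in orange. The NRF2 regulators lie around 0, and the called genes all lie to the right.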

How the data were processed

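The 6 RNA libraries, 3 KO and 3 WT, were grouped and numbered by their labels. Tools named in the submitters' processing notes, without roles, are DESeq 1.8.3, HTSeq 0.5.3, STAR 2.4.0k, bcl2fastq 2.17 and SAMtools, and GRCm38.p4 is the genome they name. Per the file headers, the deposited signal is a normalised count for each of 79382 Ensembl transcripts. Dividing each library by its smallest nonzero value gave whole numbers, within 0.001, for 100% of entries, so whole reads were recovered. Transcripts were matched to GENCODE M21 of GRCm38, and 1050 were not matched. The transcript of highest mean was kept for each gene.

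The main test was limma 3.58.1 (trended prior, genotype as its only term) on log2(value + 1) of 15619 genes that passed filterByExpr on the recovered reads, while 7775 were not tested. The log2 changes refer to log2(value + 1) and so understate low genes. Tests were two-sided, with Benjamini-Hochberg adjustment. edgeR 4.0.16 and DESeq2 1.42.0 were run on the recovered reads as alternatives, and edgeR called 282 genes. The fits were tested on simulated data. Simulated means followed each library's total reads, and limma was then given the reads scaled by the deposited factor of each library. Unchanged genes could therefore differ in level between the simulated libraries, so limma's figures may not hold for the data. There limma recovered 8% and edgeR 12% of 50 genes given a log2 change of size 1. For size 2 they recovered 54% and 58%, and for size 3 90% and 92%. Most genes given size 1 were therefore missed, and limma called 11 of the 15419 genes left as they were. The labels give no batch. Members, lists and tests were chosen with earlier results of these data known. All members and all called genes of the lists of other pathway genes are named, with up to 3 genes of smallest p in each of these lists. The 3 most abundant genes of each marker list and the 3 genes of nearest profile are named too. Other called marker genes are named only in part. Slc3a2, Keap1, Hmox1, Gstm1, Me1, Cyp2e1, Col1a1, Bmp2, Marco, Clec4f and Cx3cr1, outside this rule, were named after their values were seen. Of 82 list genes, 2 were not analysed here.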

Additional observations from a re-analysis of the deposited data

How the results depend on the processing

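Of 150 values of the 10 genes under alternative settings, 145 kept their direction. The 5 exceptions were small values in fits without a library: Nqo1 at 0.21 without KO replicate 1 and 0.35 without WT replicate 1, and Txnrd1 at 0.06, 0.03 and 0.10 without KO replicate 1, WT replicate 1 and WT replicate 2. Over the 6 fits without a library the log2 change ran from -0.55 to 0.35 for Nqo1, from -0.34 to 0.10 for Txnrd1, from 0.92 to 1.20 for Gclm and from -1.23 to -0.86 for Gsr. In those fits limma called 8 to 809 genes, 0 to 2 of the 10 genes and 1 to 5 of the list genes. Without KO replicate 3, 8 genes passed over all genes. Gsr lost its call with a pseudocount of 0.5 (-1.07), in edgeR (-1.11), with no low-value filter (-1.07) and with transcripts summed (-1.05), where Gclm also lost it (1.02). DESeq2 added Gclc (0.58) and G6pdx (-0.72). The number of the 10 genes called was therefore 1 with a pseudocount of 0.5, in edgeR and with no filter, 4 in DESeq2 and 0 with transcripts summed. Over all genes DESeq2 called 1409 and the summed transcripts 233, and of the list genes 17 and 3. The cause of these differences was not tested. The TMM scaling moved the median of all genes to -0.01 from 0.05 and changed no call among the 10 genes. Same-numbered KO and WT libraries had deviations correlated at -0.01, 0.09 and -0.14 across genes, and not every library was closest to its own number, so the replicate numbers were not taken as pairs. With the replicate block 539 genes, 2 of the 10 genes and 8 list genes were called. Of the 5 list genes called without the block, Cbs, Cth, Cat and Hagh were among the 8 and Nnt was not (limma adjusted p = 0.0617), and Gsta4, Gstm1, Me1 and Oplah were added.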
